A study of Mus musculus with 7 samples.

Results

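Alarmin receptors are the surface receptors with which type 2 innate lymphoid cells (ILC2s), lymphocytes that carry no antigen receptor, sense cytokines released by damaged or stressed tissue. The 7 receptor genes described here are Il1rl1, Il1rap, Il17rb, Il17ra, Il18r1, Il18rap and Crlf2. They were found by symbol in tables of 55335 mouse gene identifiers, and each symbol matched 1 row. RNA had been sequenced from ILC2s of 3 libraries of naive mouse hearts and of 4 libraries of heart allografts. The allografts were Balb/C hearts in C57BL/6 (B6) recipients, a model of acute rejection, and were collected on day 7 after transplantation. The labels attach the same 7 days to the naive hearts, and the strain of those hearts, the sex and age of the mice and any genotype are not given in the sources used here. Each library pooled cells of 4 to 7 hearts, so that a replicate is a pool. Whether the ILC2s of a graft came from the donor or the recipient is not given in the sources used here. The sort took cells that carried CD45 and ST2 and lacked lineage markers. It is described along with the handling of the grafts, and whether the naive cells passed the same gate is not stated separately. ST2 is the product of Il1rl1, so where the gate applied the presence of this gene was set by it and is not a finding.

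Each alarmin is bound by a specific chain that then recruits a shared or accessory chain. Interleukin 33 binds ST2 (Il1rl1), which pairs with the interleukin 1 receptor accessory protein (Il1rap). Interleukin 25 binds the B chain of the interleukin 17 receptor family (Il17rb), which pairs with the A chain (Il17ra). Interleukin 18 binds the alpha chain of its receptor (Il18r1), which pairs with the accessory beta chain (Il18rap). Thymic stromal lymphopoietin (TSLP) binds the product of Crlf2, which pairs with the interleukin 7 receptor alpha chain (Il7r). The receptors of the interleukin 1 family signal through MyD88, the interleukin 25 receptor through the adaptor Act1, and the TSLP receptor through JAK kinases and STAT5. In ILC2s these signals are known to drive type 2 cytokines such as interleukin 5 and interleukin 13, and the growth factor amphiregulin.

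Total counts lay between 29107326 and 53044907 per library. By counting error alone a count of 0 allows up to 3 counts, which corresponded to 0.0566 to 0.103 CPM (counts scaled by the library's total). Genes with a count numbered 15820 and 13864 in naive replicates 1 and 3, 20254 in naive replicate 2 and 19235 to 21354 in the allografts. How many counts of 0 in naive replicates 1 and 3 were transcripts that the library missed was not tested. Naive replicate 2 stood apart from the other 6 libraries. Mitochondrial transcripts made up 26.5% of its counts and 2.04% to 3.11% in the others. A list of 5 kidney tubule genes (Umod, Slc12a1, Lrp2, Slc34a1 and Aqp2) summed to 6309 CPM in it and to 57.4 to 237 CPM in the others. A list of 12 ILC2 markers (Gata3, Rora, Il7r, Il1rl1, Ptprc, Thy1, Il2ra, Klrg1, Icos, Il5, Il13 and Areg) summed to 199 CPM in it and to 6312 to 8293 CPM in the others, where all 12 were above 3 counts. Gata3, the lineage transcription factor of ILC2s, had 654 and 970 CPM in naive replicates 1 and 3, 706 to 876 CPM in the allografts and 34.8 CPM in naive replicate 2. The label of this library as ILC2s is therefore weakly borne out by its markers, and the comparisons of the members are given with and without it, except for DESeq2, which was run over all 7 libraries. In such bulk RNA, fewer cells of a type and less RNA per cell cannot be told apart.

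On a scale per gene length, the FPKM (fragments scaled by gene length and sequencing depth) of the deposited table, the ligand-binding chains for interleukin 33 and interleukin 25 were the highest of the 7 genes in the allografts and Il1rap was the lowest. Il1rl1 had 65.2 to 94.9 FPKM in the 4 allografts and stood above 94.1% to 96.0% of the 17015 tested genes. Il17rb followed with 34.3 to 41.2 FPKM, Il18rap with 13.8 to 29.8, Crlf2 with 6.94 to 19.0, Il17ra with 4.22 to 7.10, Il18r1 with 2.14 to 4.35 and Il1rap with 0.275 to 0.887 FPKM. The ranges of Il1rl1, Il17rb and Il18rap were separate from each other, as was that of Il1rap from all others. Those of Il18rap and Crlf2, of Crlf2 and Il17ra, and of Il17ra and Il18r1 overlapped between libraries. Within a library the order was the same in allograft replicates 1 to 3, and in allograft replicate 4 it differed only in that Il17ra (7.10 FPKM) lay just above Crlf2 (6.94 FPKM). In naive replicate 1 the order began with Il1rl1 (94.5 FPKM) and Il17rb (47.5 FPKM), and in naive replicate 3 with Il17rb (64.8 FPKM) and Il1rl1 (44.1 FPKM). In naive replicate 2 Il17rb (1.91 FPKM), Il18r1 (1.56 FPKM) and Crlf2 (1.14 FPKM) lay above Il1rl1 (0.901 FPKM).

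**Figure D1:**
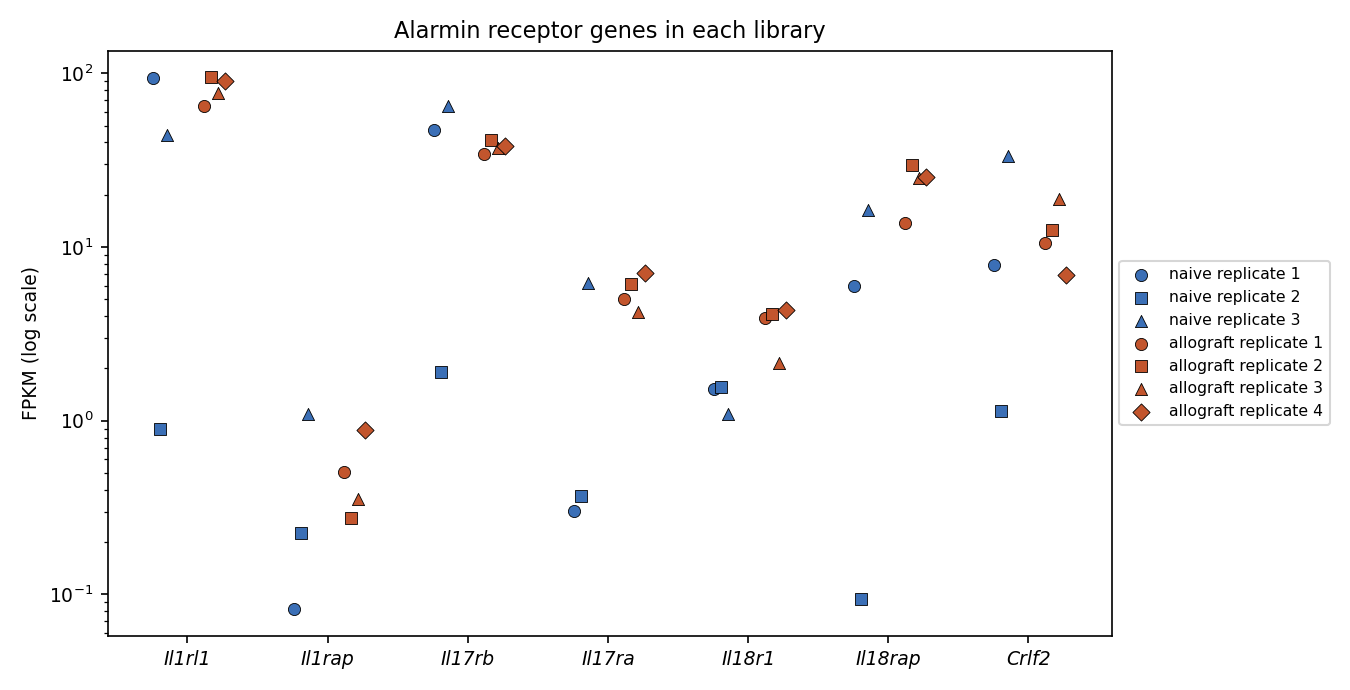
Level of the 7 alarmin receptor genes in each library, in FPKM on a log scale, with naive libraries in blue and allograft libraries in orange, and 1 marker shape per replicate number. Naive replicate 2 (blue squares) lay far below the other libraries for Il1rl1, Il17rb and Il18rap, and the 4 allografts lay above all 3 naive libraries for Il18r1 alone.

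Of the 7 genes, 0 passed an adjusted p of 0.05 in edgeR's quasi-likelihood test over all 7 libraries, where 0.0353% of the 17015 tested genes passed. All 7 had passed the filter on low counts. The lowest adjusted p of a member was 0.547 (Il18r1). At an unadjusted p under 0.05 the count was also 0 of 7, against 10.3% of all tested genes. DESeq2 likewise called 0 of the 7, against 6.4% of the 19118 genes to which it gave an adjusted p, and 0 at an unadjusted p under 0.05, against 13.3% of those with a p. Without naive replicate 2, edgeR called 0 of 7, against 3.1% of all tested genes, while Il17rb and Il18r1 had an unadjusted p under 0.05, against 20.2%. The median log2 fold change of allograft over naive was 0.82 for the 7 genes and -0.01 for all tested genes. Both medians were 0.23 without naive replicate 2. The intervals were wide, so that these tests do not show that the genes were alike in the groups.

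The receptor of interleukin 33 had its ligand-binding chain at a high level in 6 of the 7 libraries. Il1rl1 (ENSMUSG00000026069) had 745, 6.79 and 343 CPM across naive replicates 1 to 3, and 523, 756, 612 and 722 CPM in allograft replicates 1 to 4. Naive replicate 1 lay among the allografts, naive replicate 3 below them and naive replicate 2 far below all. Il1rl1 had 309 counts in naive replicate 2. The log2 fold change was 0.82 (SE 1.03, edgeR adjusted p = 0.875), with a 95% interval from -1.59 to 3.24. Without naive replicate 2 it was 0.23 (SE 0.331, adjusted p = 0.777) with an interval from -0.57 to 1.02, and with naive replicate 1 left out instead it was 1.82 (adjusted p = 0.449). Counts per gene do not tell the membrane form of ST2 from its soluble form, which arises from the same gene. The 8 listed markers of mast cells and basophils, cells that also carry ST2, reached 435, 65.6 and 728 CPM in sum across the 3 naive libraries and 294 to 323 CPM in the allografts, where 7 or 8 of the 8 were above 3 counts. The part of such cells in the Il1rl1 level was not tested.

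Il1rl1 lies on chromosome 1 (chr1:40429570-40465415 in GRCm38, plus strand) within a run of receptor genes of the interleukin 1 family. In the order Il1r2, Il1r1, Il1rl2, Il1rl1, Il18r1 and Il18rap, all on the plus strand, the run spans 477627 bases. Il1rl1 ends 136 bases before Il18r1 begins, and 14507 bases separate Il18r1 from Il18rap. The RefSeq promoter table (GRCm38.p6) was matched by symbol for 6 of the 7 genes, all but Il17ra. The 250 bases before the first annotated start of Il1rl1 and of Il18rap are shown as the windows of the gated gene and of a neighbour in the run, both free of annotated exons. They were scanned for GATA motifs, which GATA3, the lineage factor of ILC2s, binds. Capitals mark the motif AGATAA, the motif AGATAG, the motif TGATAA and the motif TGATAG on either strand. Matches that overlap are counted separately.
Il1rl1, chr1:40429320-40429569, plus strand: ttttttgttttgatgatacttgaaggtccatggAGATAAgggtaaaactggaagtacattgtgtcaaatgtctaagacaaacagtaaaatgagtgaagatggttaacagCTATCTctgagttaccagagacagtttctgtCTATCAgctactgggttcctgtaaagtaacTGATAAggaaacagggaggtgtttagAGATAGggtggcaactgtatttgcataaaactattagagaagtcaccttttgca
Il18rap, chr1:40515112-40515361, plus strand: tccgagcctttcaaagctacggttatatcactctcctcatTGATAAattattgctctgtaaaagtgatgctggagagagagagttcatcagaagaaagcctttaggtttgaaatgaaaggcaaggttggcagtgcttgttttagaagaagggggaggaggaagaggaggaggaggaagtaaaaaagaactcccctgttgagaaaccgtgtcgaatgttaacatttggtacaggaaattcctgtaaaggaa

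The Il1rl1 window held 5 matches, at 217, 141, 110, 80 and 54 bases before the start. Of 32851 windows of this length in the table, 14 (0.0426%) held at least 5 and 26.5% held at least 1. The Il18rap window held 1, at 210 bases before the start. A second Il1rl1 window, further into the gene, held 1, and the windows of Il18r1, Il17rb, Il1rap and Crlf2 held 0. Il1rl1 and Il17rb were both far lower in naive replicate 2 than in the other libraries, and the part of these motifs in the levels was not tested. GC content was 37.6% in the first Il1rl1 window, 46.4% in the second and 42.0% in that of Il18rap. It was 40.8%, 50.4% and 56.4% in those of Il18r1, and 74.4%, 72.0% and 71.6% in those of Il1rap, Il17rb and Crlf2. These are matches of letters, and no binding was measured here.

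Il1rap (ENSMUSG00000022514, chr16:26581704-26730117), the chain without which ST2 does not signal, was low in all libraries and varied widely. It had 1.07, 2.79 and 14.0 CPM across naive replicates 1 to 3, and 6.68, 3.67, 4.67 and 11.6 CPM in the allografts. The naive library with the most Il1rl1 had the least Il1rap, 57 counts or 1.07 CPM with an exact Poisson interval of 0.814 to 1.39, which covers counting error only. Naive replicate 3 had the most Il1rap of all libraries. The groups overlapped throughout, with a log2 fold change of 0.01 (SE 1.02, edgeR adjusted p = 0.999) and an interval from -2.37 to 2.40. It was -0.25 (adjusted p = 0.936) without naive replicate 2. Its annotated exons cover 11360 bases, the most of the 7 genes. Of its annotated exon bases, 552 are shared with Gm20319 on the other strand.

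The receptor of interleukin 25 differed between its chains. Il17rb (ENSMUSG00000015966, chr14:29996135-30008896), the ligand-binding chain, had 201, 7.76 and 271 CPM across naive replicates 1 to 3, and 147, 176, 158 and 164 CPM in the allografts. The allografts spread little, with a coefficient of variation of 7.38%, and all lay below naive replicates 1 and 3 and above naive replicate 2. The log2 fold change was -0.03 (SE 0.824, edgeR adjusted p = 0.998) with an interval from -1.95 to 1.89. Without naive replicate 2 it was -0.60 (SE 0.215, adjusted p = 0.207) with an interval from -1.12 to -0.09, lower in 4 of 4 allografts. Over those 6 libraries 7.49% of all tested genes were lower in every allograft. Of the 3707 exon bases of Il17rb, 141 are shared with Actr8 on the other strand, and whether strand was used in counting is not given in the sources used here.

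Il17ra (ENSMUSG00000002897, chr6:120463247-120487559), the chain that interleukin 25 shares with other interleukin 17 cytokines, split the naive libraries. It had 2.98, 3.49 and 60.7 CPM across naive replicates 1 to 3, and 51.0, 61.4, 42.2 and 71.0 CPM in the allografts. Naive replicate 3 lay within the allografts, and the other naive libraries lay far below them. The 158 counts in naive replicate 1 had an exact Poisson interval of 2.53 to 3.48 CPM, which covers counting error only. The log2 fold change was 1.24 (SE 1.01, edgeR adjusted p = 0.778) with an interval from -1.11 to 3.59, 0.75 (adjusted p = 0.752) without naive replicate 2 and 0.72 (adjusted p = 0.702) without naive replicate 1. Without naive replicate 3 it was 3.80 (SE 0.446, unadjusted p = 1.1e-04, adjusted p = 0.0667). The size of the difference thus depended on which naive library was left out, and without naive replicate 3 Il17ra was the 1 of 7 members with an unadjusted p under 0.05, against 16.7% of all tested genes.

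The receptor of interleukin 18 was the one whose 2 chains were both higher on average in the allografts, with and without naive replicate 2. Il18r1 (ENSMUSG00000026070, chr1:40465552-40500854), the ligand-binding chain, had 8.37, 8.20 and 5.96 CPM across naive replicates 1 to 3, and 22.0, 22.9, 11.9 and 24.3 CPM in the allografts. All 4 allografts lay above all 3 naive libraries, and by CPM naive replicate 2 did not stand apart for this gene. Within the library it did stand apart. Il18r1 held 25.1% of the summed FPKM of the 7 genes in naive replicate 2, and 0.653% to 2.94% in the other libraries. The naive mean was 7.51 ± 1.34 CPM (SD, n = 3), and that of the allografts was 20.3 ± 5.66 CPM (SD, n = 4). The log2 fold change was 1.18 (SE 0.557, edgeR adjusted p = 0.547) with an interval from -0.12 to 2.48, and 1.46 (SE 0.518, adjusted p = 0.206) with an interval from 0.21 to 2.70 without naive replicate 2. Neither passed the threshold.

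Il18r1 was 1 of 7 members whose allografts all lay above the naive libraries by CPM, where 12.5% of all tested genes did so, and 0 of 7 lay below, where 2.15% did. A share of 1 in 7 is near that background. With CPM scaled by TMM factors the count was 0, against 10.5%, because naive replicate 2 then had 11.6 and allograft replicate 3 had 11.2 CPM. Without naive replicate 2, Il18r1 was the only member above, against 21.6%, and Il17rb the only member below. Without naive replicate 1, Il1rl1 and Il18r1 lay above, against 28.5%. Without naive replicate 3, Il1rap, Il17ra, Il18r1 and Il18rap lay above, against 22.5%, and without allograft replicate 1, Il18r1 and Il18rap did, against 15.3%.

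Il18rap (ENSMUSG00000026068, chr1:40515362-40551705), the accessory chain, had 46.3, 0.703 and 125 CPM across naive replicates 1 to 3, and 108, 232, 193 and 198 CPM in the allografts. The groups overlapped only by naive replicate 3 and allograft replicate 1. Naive replicate 2 held 32 counts, the lowest of any member in any library. The log2 fold change was 1.62 (edgeR adjusted p = 0.741) with an interval from -1.09 to 4.33, and 1.03 (adjusted p = 0.310) with an interval from -0.18 to 2.23 without naive replicate 2. With naive replicate 3 left out it was 2.96 (adjusted p = 0.319). None of these passed the threshold.

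The summed markers of 2 other kinds of lymphocyte, some of which also carry the interleukin 18 receptor, were higher in all allografts than in the naive libraries, while single markers went either way. The 6 listed genes of NK cells and ILC1s (Ncr1, Klrb1c, Eomes, Tbx21, Gzma and Prf1) summed to 17.9 to 174 CPM in naive and 231 to 331 CPM in allograft libraries, with 2 to 4 of them above 3 counts in naive and 5 or 6 in allograft libraries. Gzma held most of that sum, and Ncr1 was higher in naive replicate 3 (28.8 CPM) than in any allograft (11.4 to 26.8 CPM). Tbx21, the defining transcription factor of type 1 lymphocytes, had 0 counts in the 3 naive libraries and 1.74 to 7.95 CPM in the allografts, and Eomes was at 0 in naive replicates 2 and 3 and in allograft replicate 3. The 9 listed T cell genes summed to 24.7 to 542 CPM in naive and 583 to 728 CPM in allograft libraries, most of it from Trbc2 and Cd3g. Cd3e was at most 1.24 CPM in any library. Cd3d had 32.5 CPM in naive replicate 3 and 3.57 to 8.64 CPM in the allografts. Cd4 had 11.6 CPM in naive replicate 3 and at most 0.721 CPM in any other library. The sums of 5 B cell genes overlapped (0 to 117 CPM in naive and 88.5 to 144 CPM in allograft libraries). The part of such cells in the interleukin 18 receptor levels was not tested. Il18r1 begins 136 bases after the end of Il1rl1, which had more counts than Il18r1 in 6 libraries and fewer in naive replicate 2. Reads that run on from one gene into the next could not be seen in these tables and were not tested.

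Crlf2 (ENSMUSG00000033467, chr5:109554709-109558993), the chain specific to TSLP, had 13.5, 1.87 and 56.2 CPM across naive replicates 1 to 3, and 18.3, 21.6, 32.6 and 12.0 CPM in the allografts. Naive replicate 3 was the highest and naive replicate 2 the lowest, with the allografts between them. The log2 fold change was -0.24 (SE 0.918, edgeR adjusted p = 0.973) with an interval from -2.38 to 1.90, and -0.79 (adjusted p = 0.563) with an interval from -2.38 to 0.80 without naive replicate 2. Without naive replicate 3 it was 1.39 (adjusted p = 0.388), so that its direction rested on single libraries. Its partner Il7r, which also serves the interleukin 7 receptor, had 326, 20.1 and 775 CPM in naive and 460 to 771 CPM in allograft libraries, with a log2 fold change of 0.72 (adjusted p = 0.871) or 0.15 (adjusted p = 0.885) without naive replicate 2.

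**Figure D2:**
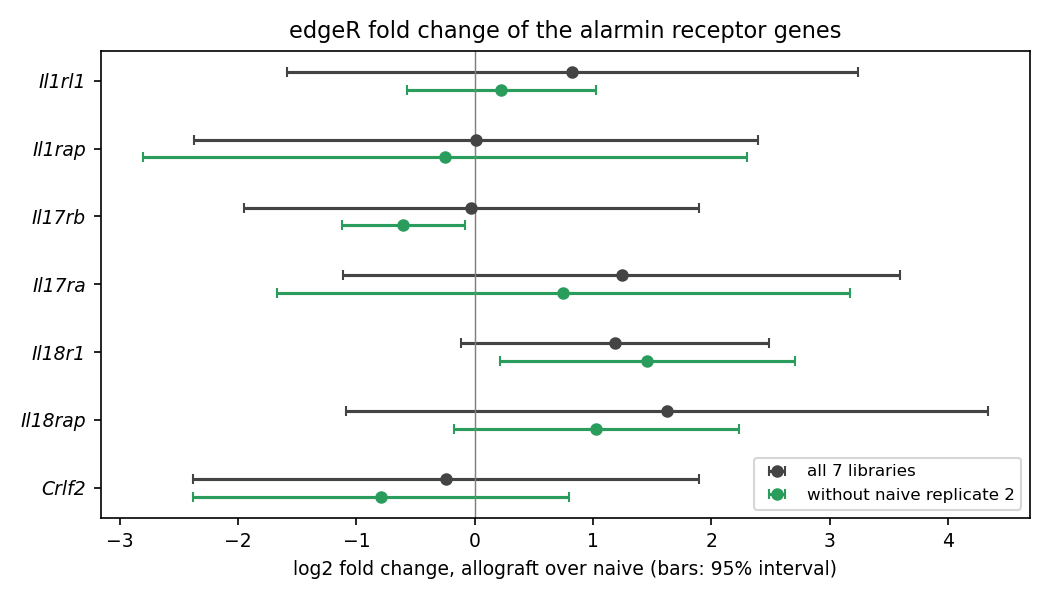
Log2 fold change of allograft over naive with its 95% interval for the 7 genes, from edgeR over all 7 libraries (grey) and without naive replicate 2 (green). All intervals over the 7 libraries include 0, and without naive replicate 2 those of Il17rb (-1.12 to -0.09) and Il18r1 (0.21 to 2.70) do not, although neither passed the adjusted threshold.

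The balance of partner chains within a library was uneven. For 3 of the 4 receptors it varied far more among the naive libraries than among the allografts. For the TSLP receptor both groups varied to a similar degree. FPKM of Il1rl1 was 1148, 4.01 and 40.4 times that of Il1rap in naive replicates 1 to 3 and 129, 345, 217 and 102 times in the allografts. The ligand-binding chain was in excess in each library. Il17rb was 158, 5.18 and 10.5 times Il17ra in the naive libraries and 6.79, 6.72, 8.78 and 5.40 times in the allografts. Here naive replicate 1 stood far above the others, and the 4 allografts stayed within a narrow range. For interleukin 18 the order of the chains was the opposite. Il18r1 was 0.254, 16.5 and 0.0666 times Il18rap in the naive libraries and 0.285, 0.138, 0.0860 and 0.172 times in the allografts, so that the accessory chain was in excess in 6 of 7 libraries. Crlf2 was 0.129, 0.290 and 0.227 times Il7r in the naive and 0.124, 0.0877, 0.148 and 0.0582 times in the allograft libraries.

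None of the 4 ratios passed the test between the groups. On the log2(FPKM + 0.1) scale the ratio of Il1rl1 to Il1rap averaged 5.29 ± 3.70 (SD, n = 3) over the naive libraries and 7.17 ± 0.66 (SD, n = 4) over the allografts (exact two-sided permutation p = 0.371, or 0.457 adjusted over the 4 ratios). The difference of 1.88 was 0.05 (exact p = 1.0) without naive replicate 2 and 3.75 (exact p = 0.0667) without naive replicate 1. The ratio of Il17rb to Il17ra was 4.12 ± 2.48 and 2.75 ± 0.28 (exact p = 0.343, adjusted 0.457), and without naive replicate 2 the difference was -2.38, at the smallest exact p that 6 libraries can give (0.0667). For Il18r1 to Il18rap it was -0.87 ± 3.56 and -2.65 ± 0.70 (exact p = 0.457), a difference of -1.78 that was 0.20 (exact p = 0.733) without naive replicate 2. For Crlf2 to Il7r it was -2.26 ± 0.63 and -3.33 ± 0.59 (exact p = 0.114, adjusted 0.456), a difference of -1.07 that was -0.79 (exact p = 0.2) without naive replicate 2. The smallest exact p that 3 against 4 libraries allow is 0.0286, and a single ratio at that p could not pass after adjustment over the 4 ratios.

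**Figure D3:**
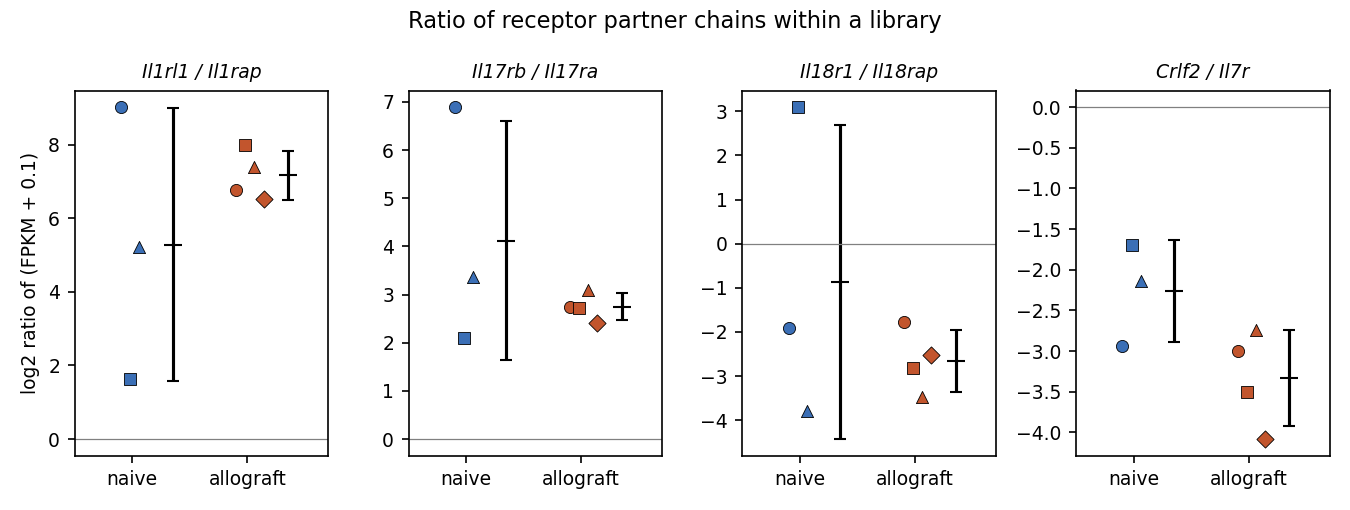
Log2 ratio of FPKM + 0.1 of the 2 chains of each receptor in each library (circle, square, triangle and diamond for replicates 1 to 4), with the mean and SD of each group in black. The allografts lay close together, between 2.42 and 3.10 for Il17rb to Il17ra, while the naive libraries ran from 2.10 to 6.89.

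Il17rb made up less and Il18rap more of the receptor set in every allograft than in any naive library. Il17rb held 30.1%, 30.8% and 38.8% of the summed FPKM of the 7 genes in naive replicates 1 to 3 and 25.7%, 21.8%, 22.5% and 22.1% in the allografts. Il18rap held 3.80%, 1.52% and 9.81% in the naive libraries and 10.3%, 15.8%, 15.1% and 14.6% in the allografts. Neither gene's groups overlapped, naive replicate 2 included, although the gap for Il18rap between naive replicate 3 and allograft replicate 1 was small. How many of all tested genes would separate on this scale was not determined, so that these 2 of 7 have no background beside them. With shares taken from counts in place of FPKM the groups of Il18rap overlapped (exact p = 0.0857), and those of Il17rb did not (exact p = 0.0286). Both had the smallest exact two-sided permutation p, 0.0286, which is 0.1 after adjustment over the 7 shares and did not pass. These 2 genes alone could not have passed, because several more shares would have had to reach the smallest p as well. Both p were 0.0667 without naive replicate 2, again the smallest possible. With naive replicate 1 left out instead, the shares of Il1rl1, Il1rap and Crlf2 also reached that exact p of 0.0667. The other 5 genes overlapped between the groups, with exact p from 0.229 to 0.886. Il1rl1 held 59.9%, 14.5% and 26.4% in the naive and 46.8% to 52.2% in the allograft libraries. Shares sum to 100%, so that 1 gene's share depends on the others.

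**Figure D4:**
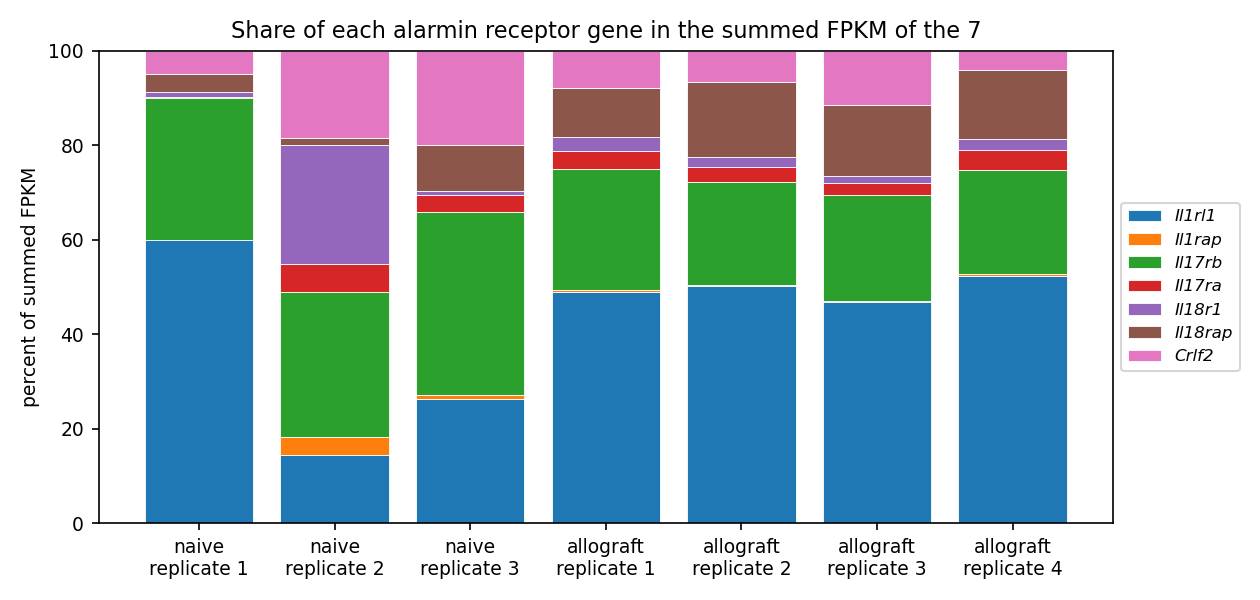
Percent of the summed FPKM of the 7 genes held by each gene in each library, as stacked bars that reach 100%. The Il17rb part (green) was 21.8% to 25.7% in the allografts and 30.1% to 38.8% in the naive libraries, and the Il18rap part (brown) was 10.3% to 15.8% against 1.52% to 9.81%.

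The same 2 genes stood apart when each member was set against genes of ILC2 identity in the same library, the geometric mean FPKM of Gata3, Rora, Il7r and Ptprc. On the log2 scale Il18rap lay at -3.08, -4.03 and -2.80 relative to that mean in naive replicates 1 to 3 and at -2.30, -1.71, -1.75 and -1.73 in the allografts. All 4 allografts lay above, by 1.43 on average. Il17rb lay at -0.11, -0.65 and -0.83 in the naive and at -0.99, -1.24, -1.17 and -1.13 in the allograft libraries, all 4 below, by 0.60 on average. For both, the exact two-sided permutation test gave p = 0.0286 (adjusted 0.1 over the 7 members). As with the shares, these 2 genes alone could not have passed after adjustment. With a pseudocount of 1 in place of 0.1 the Il18rap difference was 0.73 and its groups overlapped (exact p = 0.0857), while Il17rb was still apart (-0.61, exact p = 0.0286). On this measure 0.47% of the 17015 tested genes were higher in every allograft and 8.45% lower in every one. The same 2 members stood apart without naive replicate 2, and the shares of all tested genes were 13.7% and 8.72%, so that the rarity of genes placed like Il18rap depended on that library. Il1rl1 lay within 0.12 of the identity genes in all 4 allografts, at -0.03 ± 0.10 (SD, n = 4), and at 0.88, -1.66 and -1.38 in the naive libraries. The remaining 5 members had exact p from 0.171 to 0.857. Among them, Il18r1 lay at -4.99, -0.93 and -6.60 in naive replicates 1 to 3 and at -5.22 to -4.08 in the allografts. The identity genes and the members were measured in the same libraries and share their depth. Shares and identity levels rescale the same FPKM of the members, so that the 2 measures are not independent of each other.

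Other receptors and decoys of these families were uneven among the libraries. Il1r2, a decoy receptor that binds interleukin 1 without signalling, had 948, 4.68 and 16.8 CPM across naive replicates 1 to 3, and 325, 225, 289 and 210 CPM in the allografts, and naive replicate 1 alone exceeded the allografts. Its log2 fold change was -0.29 (edgeR adjusted p = 0.979) over all 7 libraries, -0.90 (adjusted p = 0.733) without naive replicate 2 and 4.42 (adjusted p = 0.0458) without naive replicate 1. Il1r1, the signalling receptor of interleukin 1, had 9.44, 3.41 and 0 CPM in the naive and 0 to 3.33 CPM in the allograft libraries. Sigirr, an inhibitory member of the family, had 51.5, 36.4 and 142 CPM in the naive and 76.2 to 107 CPM in the allograft libraries (log2 fold change 0.11, adjusted p = 0.976, and -0.15 without naive replicate 2). Il17rd had 32.9 CPM in naive replicate 3 and at most 1.82 CPM in any other library. Il17re had 30.2 CPM in naive replicate 2 and at most 3.23 CPM elsewhere, and Il17rc had 6.64 CPM there and at most 1.57 CPM elsewhere. Il1rl2 was at most 2.41 CPM and the interleukin 18 binding protein Il18bp, a soluble decoy, at most 4.62 CPM in any library.

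Of 60 listed genes of the alarmin pathways (ligands, other receptors and decoys, signalling and effector genes), 57 were tested and 0 passed in edgeR over all 7 libraries, against 0.0353% of all tested genes. At an unadjusted p under 0.05, 3 were higher and 2 lower, together 8.77% of the 57 against 10.3% of all tested genes. DESeq2 called 3 of the 50 genes to which it gave an adjusted p (6.0% against 6.4%), Stat5a upward and Il17rd and Socs3 downward. With naive replicate 2 left out, edgeR called 2 upward, the ligand gene Il18 and the adaptor gene Traf5 (3.51% against 3.1%). Without naive replicate 1 it called Il1r2 and the enkephalin precursor gene Penk upward, against 0.568% of all tested genes. Penk and Socs3 are named here after their values were seen. The median log2 fold change of the 57 genes was 0.26 over all 7 libraries, against -0.01 for all tested genes, and 0.16 against 0.23 without naive replicate 2.

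For several of the named pathway genes 1 naive library stood apart from the other 2. Il18 had 143 counts in naive replicate 2, 0 in the other naive libraries and 60 to 106 in the allografts. Without naive replicate 2, and taking 3 counts per naive library as the floor, Il18 was 40.3-fold higher in allografts (edgeR adjusted p = 0.0437). With that library the adjusted p was 0.967. This floor covers counting error only, and naive replicates 1 and 3 had fewer genes with a count than any allograft. The fold is therefore not a lower bound if transcripts were missed there. Traf5, which encodes a TRAF adaptor, had the same pattern as Il18, with 214 counts in naive replicate 2, 0 in the other naive libraries and 78 to 240 in the allografts. By the same floor and with the same limit it was 75.5-fold higher without naive replicate 2 (edgeR adjusted p = 0.0433, and 0.944 with it). Of the 560 genes called without naive replicate 2, 542 were higher in the allografts. Stat5a, a transcription factor downstream of the TSLP receptor and of other cytokine receptors, had 22.0, 7.72 and 18.6 CPM in the naive and 36.5, 76.4, 67.3 and 63.8 CPM in the allograft libraries. All 4 allografts lay above all naive libraries, with a log2 fold change of 1.79 (SE 0.418, edgeR adjusted p = 0.161) and 1.54 (adjusted p = 0.0894) without naive replicate 2. DESeq2 gave 1.62 (adjusted p = 0.00126). Rela, a subunit of NF-kB, had 60.8, 30.2 and 18.0 CPM in the naive and 64.4 to 90.9 CPM in the allograft libraries (0.92, edgeR adjusted p = 0.547, and 0.96 without naive replicate 2). The cytokine gene Il2 had 16.3, 4.09 and 236 CPM in the naive and 17.7 to 29.6 CPM in the allograft libraries (-1.83, adjusted p = 0.679, and -2.39 with 0.210 without naive replicate 2). The interleukin 1 receptor antagonist gene Il1rn had 0 counts in all naive libraries, none in allograft replicate 3, and 0.401 to 2.93 CPM among the remaining grafts (adjusted p = 0.352, and 0.245 without naive replicate 2). Of the ligands, Il25 had 0 counts in every library, and Tslp was found in naive replicate 2 alone, at 2.77 CPM.

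How the members varied together depended on naive replicate 2. Over all 7 libraries, which share the low values of naive replicate 2, Pearson's r of log2 CPM was 0.94 between Il1rl1 and Il17rb, 0.95 between Il1rl1 and Il18rap and 0.92 between Il17rb and Il18rap. Over the 6 libraries without it, these values were -0.64, 0.02 and -0.26. The highest r over the 6 libraries was 0.88, between Il17ra and Il18rap, followed by 0.86 between Il17ra and Il1rap. The receptor pairs themselves had -0.61 for Il1rl1 and Il1rap, -0.11 for Il17rb and Il17ra and 0.52 for Il18r1 and Il18rap. These are descriptions over few libraries in 2 groups.

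Among the 4919 or 4920 genes searched, those with a symbol and an average log2 CPM of at least 5, the 3 most alike to each member were taken by Pearson's r over the 6 libraries without naive replicate 2. Over so few libraries each member found 3 genes with an r of at least 0.972. For Il1rl1 they were Slc43a2, D17Wsu92e and Smc5, with r of 0.991, 0.990 and 0.987, and with -0.219, 0.0877 and 0.660 over all 7 libraries. For Il1rap they were Cd274 (0.987), Abhd8 and Vamp2, and for Il17ra Sde2 (0.999), Gstm2 and Zmym5. For Il17rb they were Actr8, Coro2a and Drap1, each at 0.993. Actr8 is the gene that shares exon bases with Il17rb on the other strand, and Coro2a kept an r of 0.998 over all 7 libraries. For Il18r1 they were Casp8ap2 (0.986), Atp6v0a4 and Gm11808, for Il18rap Itpkb (0.997), 2610507B11Rik and Map4k4, and for Crlf2 Rab24 (0.985), Mapk14 and Cmtr1. Map4k4 ends 47768 bases before Il1r2, the first gene of the receptor run on chromosome 1.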

How the data were processed

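RNA of sorted ILC2s had been sequenced from 3 naive heart and 4 allograft pools, which the series' design text calls biological replicates. The deposited tables hold raw counts per gene, without normalization by the authors, and FPKM, which the authors scaled by gene length and depth. Per the submitters' processing notes, FastQC 0.11.5, STAR 2.5.3a, StringTie 1.3.1c, DESeq2 1.16.1 and build mm10 were used. Counting, annotation and strand use are not given in the sources used here. For the 7340 genes whose counts reached 100 throughout, FPKM followed CPM within an SD of 0.00352 (log2) after gene and library means. Of the identifiers, 3225 had no symbol.

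Counts were tested with edgeR 4.0.16 in R 4.3.3 (TMM, filterByExpr, quasi-likelihood, Benjamini-Hochberg over all tested genes at 0.05), allograft over naive. CPM use total counts. Ratios, shares and levels relative to identity genes come from FPKM, with a pseudocount of 0.1 for ratios and identity levels, and exact two-sided permutation tests over libraries. The edgeR step was tested on simulated counts. Loci come from GENCODE M21 (GRCm38) and promoters from RefSeq (GRCm38.p6).

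The members and lists were chosen with earlier results of these data known. Named were all members, 9 partner and decoy genes, ILC2 markers, for each pathway list up to 3 called genes or else the gene with the smallest p, and 3 most alike genes per member. Alternatives were DESeq2 1.42.0, its size factors, 2 other count filters, a replicate block, other pseudocounts and scales, and leaving out each library.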

Additional observations from a re-analysis of the deposited data

Results flagged for a closer look

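Of 47 sets of values examined within the 4 allografts, 3 had a library far from the other 3 by Dixon's criterion, where about 1 in 20 (2.35) is expected by chance. Relative to the ILC2 identity genes, Il18rap lay at -2.296 (log2) in allograft replicate 1 and at -1.746 to -1.708 in the others. For Il1r1, allograft replicate 3 had 3.328 CPM, against 0 to 0.1543 CPM. Il2ra, a chain of the interleukin 2 receptor, reached 357.1 CPM in allograft replicate 1, against 317.5 to 319.3 CPM.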

How the results depend on the processing

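Of 395 alternatives to 38 results, leaving out those where DESeq2 gave no adjusted p, 354 kept direction and side of the threshold. Another 29 reversed, and 1 of them, Il1r2 without naive replicate 1, also newly passed the threshold. A further 4 newly passed it and 8 moved. With a library left out, ratios, shares and identity levels could not pass, because their smallest exact p was 0.0667 or 0.1. Those alternatives bear on direction only. Over all 7 libraries, ratios, shares and identity levels could pass only if several of a kind reached the smallest exact p together. In all 12 alternatives of the count test 0 of the 7 members passed. With the replicate block, or with any single allograft library left out, 0 genes of the whole table passed. DESeq2 size factors, the 2 other filters and leaving out naive replicate 3 gave 4 to 7 called genes in all. The 0 of 7 in these settings therefore says little about the members. DESeq2 size factors moved the median of all genes to -0.20 and turned Il1rap to -0.17 and Sigirr to -0.0636. DESeq2 gave -0.19 and -0.0783 for these, and 3 pathway genes called. Without a filter Il1rap was -0.0117. The number of members whose groups did not overlap was 0 with TMM-scaled CPM. With counts in place of FPKM the Il17ra share difference was -0.956, and with a pseudocount of 1 its identity level differed by -0.00058.

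Leaving out 1 library each, log2 fold changes ran from 0.23 to 1.82 for Il1rl1, 0.72 to 3.80 for Il17ra, 1.03 to 2.96 for Il18rap, -0.49 to 1.37 for Il1rap, -0.60 to 0.61 for Il17rb, -0.79 to 1.39 for Crlf2, -2.39 to 1.19 for Il2, -0.90 to 4.42 for Il1r2 and -0.15 to 0.80 for Sigirr. The non-overlap count ran from 1 to 4 and the pathway count from 0 to 2. Ratio differences ran from -2.38 to 0.013 (Il17rb to Il17ra) and -3.24 to 0.20 (Il18r1 to Il18rap), and share differences from -1.41 to 1.47 (Il17ra) and -10.8 to 1.42 (Il18r1). Identity level differences ran from -2.25 to 0.17 (Il1rap), -0.41 to 1.72 (Il17ra) and -1.56 to 1.27 (Il18r1). The cause was not tested.

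Same-numbered libraries did not deviate together (correlations 0.0169, -0.0196 and 0.036), and naive replicate 1 correlated best with allograft replicate 3 (0.0615), so that the numbers are not taken as pairs. With the replicate block 0 members and 0 genes were called (478 genes at an unadjusted p under 0.05), and Il17rb was 0.62, Crlf2 0.79 and Il1r2 3.03.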
